A study of Saccharomyces cerevisiae SK1 with 8 samples.

Results

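The genes that splice tRNA and move it between nucleus and cytoplasm were followed in growing budding yeast. They are 10 of the 6663 genes counted in the series, chosen by their systematic names, namely the 4 tRNA splicing endonuclease subunit genes SEN2, SEN34, SEN54 and SEN15, the tRNA ligase gene TRL1, the phosphotransferase gene TPT1, the exportin genes LOS1 and MSN5, the cytoplasmic tRNA-binding protein gene CEX1 and the tRNA re-import gene MTR10. All 10 genes passed the filter on low counts.

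The series asks what a truncated isoform of Pus1, a pseudouridine synthase that acts on tRNA, does in cells with and without native PUS1. Polyadenylated RNA was sequenced from diploid MATa/alpha SK1 yeast in rich medium (YEPD) at 30 °C, 3 h after dilution of overnight cultures. The cultures were diluted into anhydrotetracycline (aTC), which switches the construct on, or into DMSO as the vehicle. There were 4 groups of 2 biological replicates: the PUS1 deletion (pus1::KanMX) and wild type, each given DMSO or aTC. All 4 groups, the controls included, carried altPus1-3V5 under pTetO7.1 at his3, with pRNR2-TetR-Tup1 and pTetO7.1-TetR at ura3. The strain called wild type therefore differs from the deletion by its native PUS1 gene and not by the construct, and the labels do not say how many clones of each strain were used.

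In yeast, pre-tRNAs that contain an intron leave the nucleus before they are spliced, because the endonuclease sits on the outer surface of mitochondria. The endonuclease removes the intron, the ligase joins the cut ends of the tRNA, and the phosphotransferase clears the phosphate left at the junction. Pus1 works in the nucleus and modifies some tRNAs while they still hold their intron, and mutations in PUS1 and LOS1 were found together in genetic screens built on a nuclear pore gene. In the RefSeq R64 annotation of the S288C reference, 60 of 275 nuclear tRNA genes have more than 1 exon. The tRNAs themselves were not analysed here, since the libraries were made from polyadenylated RNA. Of the feature names, 0 match the RefSeq name of a tRNA gene, though a tRNA named in another way would be missed.

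Total counts were 51331492 to 61960514 reads per library. PUS1 followed the labels in all 8 libraries, at 0.0382 and 0.0654 CPM (read counts scaled to a common library size, here with TMM factors) in the deletion with DMSO and 216 and 221 CPM in wild type with DMSO, against 771 and 905 CPM in the induced deletion and 1078 and 1124 CPM in induced wild type. Its counts do not separate the native transcript from the construct. The 9 listed haploid-specific genes, which a diploid represses, lay at 0.0533 to 11.5 CPM, with STE3 at 0.0533 to 0.497 CPM and HO highest. Per kb of gene length they lay at 0.0378 to 12.4 CPM, with MFA2 highest. The 5 meiotic genes lay at 2.58 to 26.2 CPM per kb of gene length, which reaches the level of the lowest genes of the splicing set.

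The RNA levels of the splicing and export genes were nearly flat across the 4 groups. None of the 10 genes passed an edgeR quasi-likelihood adjusted p of 0.05 in any of 7 comparisons, and 0 passed in DESeq2. Fitted folds in the 4 pairwise comparisons ran from 0.885 (SEN15) to 1.10 (TPT1), both for aTC in the deletion. For 9 genes without SEN15, all 36 of these 95% intervals lay between a fold of 0.824 and a fold of 1.21. SEN15, with the fewest reads, had intervals from 0.748 to 1.26. Across all 8 libraries the highest CPM of a gene was a median of 1.13 times its lowest, against a median of 1.22 over the 5932 genes tested. SEN15 had the widest ratio, 1.28, and the other 9 had 1.12 to 1.17. The 5932 genes were not matched to the 10 on read count, which can also affect this ratio. Replicates of a group differed by a coefficient of variation of 0.0635% to 11.5%, with a median of 2.72% over the 40 gene and group pairs.

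**Figure D1:**
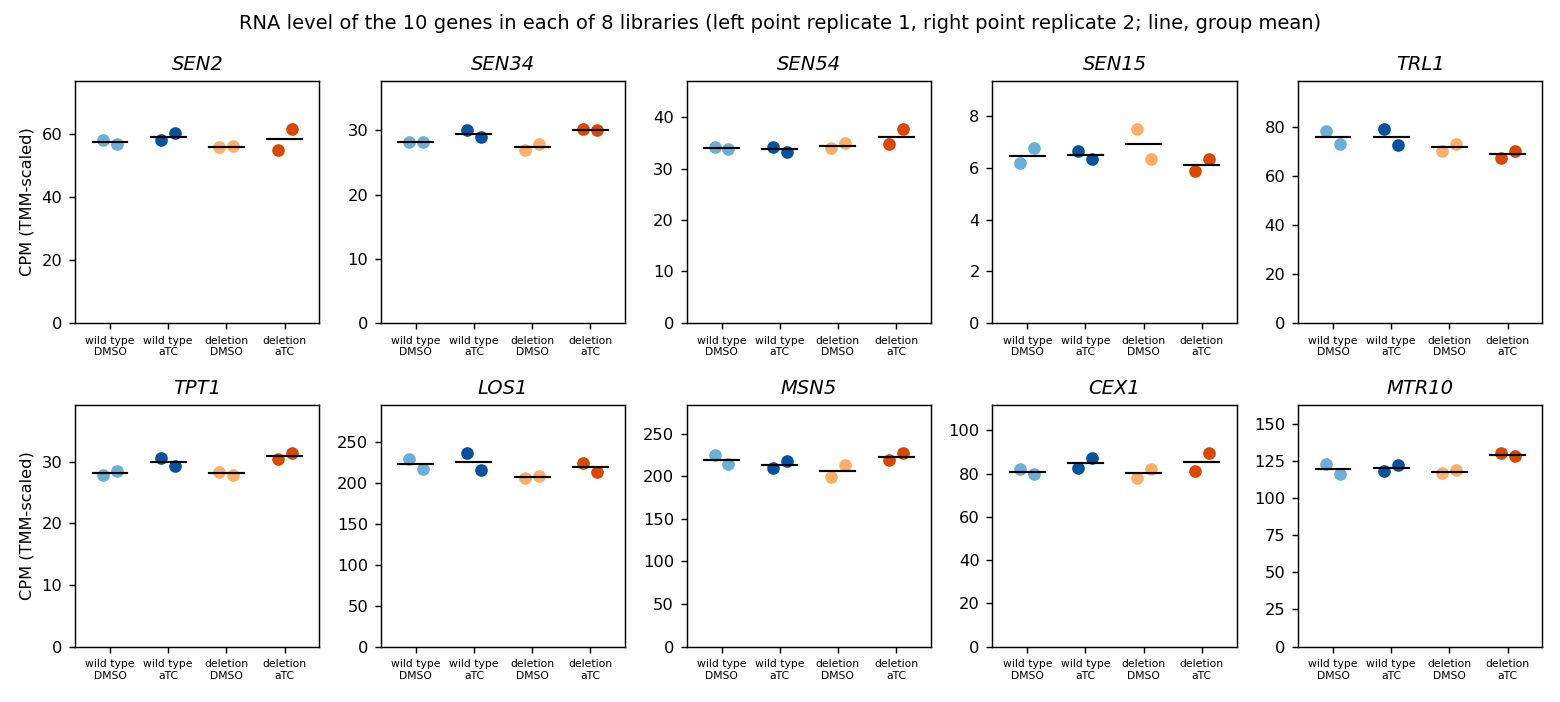
TMM-scaled CPM (y axis, from 0) of each of the 10 genes in the 8 libraries, by group on the x axis; points are replicates and lines are means of 2. Most points of a gene lie within a narrow band, widest for SEN15, whose highest library is 1.28 times its lowest.

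Levels per gene length placed the exportins highest and the smallest endonuclease subunit lowest. LOS1, which encodes the main tRNA exportin, had a mean over all 8 libraries of 66.4 CPM per kb, and MSN5, whose product exports spliced and charged tRNA as well as many proteins, 58.6 CPM per kb. SEN2 followed at 50.8, TPT1 at 42.3, MTR10 at 41.7, CEX1 at 36.2, SEN34 at 34.8, TRL1 at 29.3, SEN54 at 24.6 and SEN15 at 16.8 CPM per kb. The median of all tested genes was 39.8 CPM per kb, and the 10 genes ran from the 24.1 percentile (SEN15) to the 64.6 percentile (LOS1) of it. Each gene was above the next in this order in all 8 libraries except for TPT1 over MTR10, which held in 5, and CEX1 over SEN34, which held in 6. Those 2 pairs did not differ beyond their spread, while the ranges of the other 7 neighbouring pairs did not overlap. A bias in a gene's counts that all libraries share would not show in these ranges. The order is therefore of counts per length and need not be that of the true RNA amounts.

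**Figure D2:**
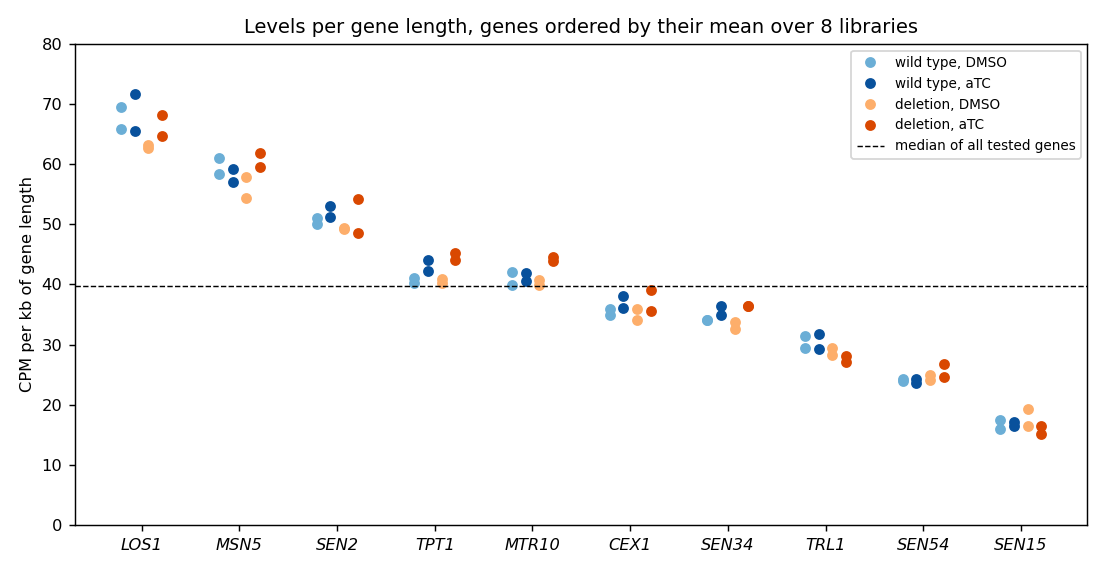
CPM per kb of gene length (y axis, from 0) of the 10 genes, ordered by mean, with 1 point per library coloured by group; the dashed line is the median of all tested genes, 39.8 CPM per kb. The order runs from LOS1 at 66.4 to SEN15 at 16.8, and only TPT1 with MTR10 and CEX1 with SEN34 overlap among neighbours.

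The endonuclease is a complex of 4 proteins, and the counts per length of its mRNAs were unequal. SEN2 and SEN34 encode the catalytic subunits, which cut the opposite ends of the intron. Per length, SEN2 was 1.33 to 1.52 times SEN34 over the 8 libraries, 1.97 to 2.24 times SEN54 and 2.54 to 3.29 times SEN15. SEN54 and SEN15 encode the subunits without a catalytic site. These ratios are of counts per length, with the limit given above, and say nothing of the amounts of protein.

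SEN2 (YLR105C, minus strand of chromosome 12 at 327921 to 329054, positions as in the files) had 57.9 and 56.7 CPM in wild type with DMSO, 58.0 and 60.1 in wild type with aTC, 55.9 and 56.1 in the deletion with DMSO, and 55.0 and 61.4 in the deletion with aTC. The deletion with aTC held both its highest and its lowest library, so SEN2 varied most within 1 group. With aTC the log2 fold change was 0.06 in the deletion (SE 0.0643, edgeR adjusted p = 0.63) and 0.04 in wild type (SE 0.0644, adjusted p = 0.997). Without replicate 2 of the deletion with aTC the first of these turned to -0.04.

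SEN34 (YAR008W, chromosome 1, 145333 to 146160, plus strand) had 28.3 and 28.2 CPM in wild type with DMSO, 30.1 and 28.9 in wild type with aTC, 27.0 and 27.9 in the deletion with DMSO, and 30.2 and 30.1 in the deletion with aTC. All 4 aTC libraries lay above all 4 DMSO libraries. Libraries separated in the higher direction in this way for 3.89% of all tested genes. Averaged over genotypes the fold was 1.07 (log2 0.10, SE 0.0446, 95% interval 0.00 to 0.20), with an unadjusted p = 0.0479 and an edgeR adjusted p = 0.26, so the difference did not pass.

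SEN54 (YPL083C, chromosome 16, 400324 to 401730, minus strand) had 34.1 and 33.8 CPM in wild type with DMSO, 34.2 and 33.3 in wild type with aTC, 33.9 and 35.0 in the deletion with DMSO, and 34.7 and 37.6 in the deletion with aTC. Replicate 2 of the deletion with aTC stood highest, and the other 7 libraries lay close together. Its largest pairwise value was a log2 of 0.10 for deletion against wild type in aTC (SE 0.0653, edgeR adjusted p = 0.312).

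SEN15 (YMR059W, chromosome 13, 360990 to 361376, plus strand) is the shortest gene of the set, at 387 bases, and had 308 to 402 reads per library. It had 6.19 and 6.76 CPM in wild type with DMSO, 6.64 and 6.34 in wild type with aTC, 7.49 and 6.36 in the deletion with DMSO, and 5.87 and 6.36 in the deletion with aTC. The highest and the lowest value were each replicate 1 of a deletion group, and the groups overlapped. The log2 fold change for aTC in the deletion was -0.18 (SE 0.11, edgeR adjusted p = 0.362), the largest in size among all pairwise values of the 10 genes.

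TRL1 (YJL087C, chromosome 10, 248431 to 250914, minus strand) encodes the tRNA ligase, which also joins the exons of the HAC1 mRNA after Ire1 cuts it. It had 78.2 and 73.0 CPM in wild type with DMSO, 78.9 and 72.5 in wild type with aTC, 70.2 and 73.0 in the deletion with DMSO, and 67.4 and 70.0 in the deletion with aTC. The deletion libraries were on the low side, though the deletion with DMSO overlapped wild type at 73.0 CPM. Averaged over treatments, deletion against wild type gave a fold of 0.927 (log2 -0.11, SE 0.0448, 95% interval -0.21 to -0.01), with an unadjusted p = 0.0327 and an edgeR adjusted p = 0.101. The adjusted p was 0.0375 without replicate 2 of wild type with aTC (log2 -0.13) and 0.0918 to 0.291 with each other library left out, so the call appeared only on leaving out that library. More genes of the series were called in that fit than in the full fit. In aTC alone, where the groups did not overlap, the log2 fold change of TRL1 was -0.14 (SE 0.0633, edgeR adjusted p = 0.151). TRL1 overlaps 1 other listed gene, YJL086C, at its edge.

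TPT1 (YOL102C, chromosome 15, 106332 to 107024, minus strand), whose product transfers the junction phosphate to NAD, had 27.9 and 28.4 CPM in wild type with DMSO, 30.6 and 29.3 in wild type with aTC, 28.3 and 27.9 in the deletion with DMSO, and 30.5 and 31.4 in the deletion with aTC. As for SEN34, all 4 aTC libraries lay above all 4 DMSO libraries, against 3.89% of tested genes. The averaged fold with aTC was 1.08 (log2 0.11, SE 0.0447, 95% interval 0.02 to 0.21, edgeR adjusted p = 0.215), and it did not pass.

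LOS1 (YKL205W, chromosome 11, 56734 to 60036, plus strand) had 230 and 217 CPM in wild type with DMSO, 237 and 216 in wild type with aTC, 207 and 208 in the deletion with DMSO, and 225 and 214 in the deletion with aTC. The uninduced deletion lay below every other library, though the share of all tested genes with this pattern was not counted. Between the strains in DMSO alone, 29.4% of all tested genes were lower without overlap. Against wild type with DMSO the log2 fold change of LOS1 was -0.11 (SE 0.0609, 95% interval -0.24 to 0.03, edgeR adjusted p = 0.396).

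MSN5 (YDR335W, chromosome 4, 1111299 to 1114973, plus strand) had 224 and 214 CPM in wild type with DMSO, 210 and 217 in wild type with aTC, 200 and 213 in the deletion with DMSO, and 219 and 227 in the deletion with aTC. Its log2 fold change with aTC was 0.11 in the deletion (SE 0.0566, edgeR adjusted p = 0.26) and -0.04 in wild type (SE 0.0566, edgeR adjusted p = 0.997), and neither passed. The difference between these 2 responses, the widest of the 10 genes in the upward direction, was a log2 of 0.15 (SE 0.0801, edgeR adjusted p = 0.66).

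CEX1 (YOR112W, chromosome 15, 513289 to 515577, plus strand), whose product takes up tRNA on the cytoplasmic face of the nuclear pore, had 82.2 and 79.7 CPM in wild type with DMSO, 82.6 and 87.3 in wild type with aTC, 78.1 and 82.1 in the deletion with DMSO, and 81.4 and 89.5 in the deletion with aTC. The groups of the deletion overlapped, and those of wild type did not. The averaged fold with aTC was 1.06 (log2 0.08, SE 0.0444, edgeR adjusted p = 0.346).

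MTR10 (YOR160W, chromosome 15, 610380 to 613298, plus strand), which encodes an importin needed for the return of tRNA to the nucleus, had 123 and 116 CPM in wild type with DMSO, 118 and 122 in wild type with aTC, 117 and 119 in the deletion with DMSO, and 130 and 128 in the deletion with aTC. The deletion with aTC was above every other library, though the share of all tested genes with this pattern was not counted. Against the deletion with DMSO alone, 29.8% of all tested genes were higher without overlap. For aTC in the deletion the fold was 1.10 (log2 0.14, SE 0.0525, 95% interval 0.02 to 0.25), with an unadjusted p = 0.026 and an edgeR adjusted p = 0.163, so it did not pass. In wild type the log2 fold change was 0.01 (SE 0.0526), and the difference between the responses was 0.13 (SE 0.0743, edgeR adjusted p = 0.66).

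**Figure D3:**
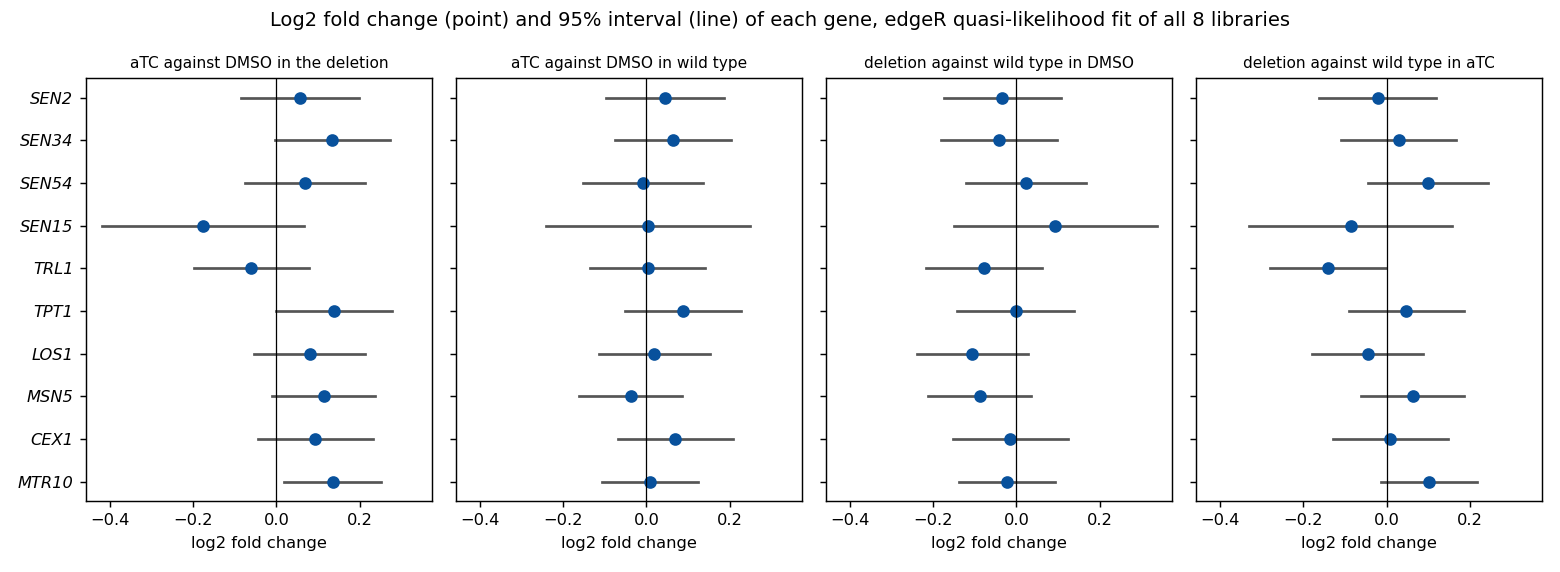
Log2 fold change (x axis) and 95% interval of each of the 10 genes (y axis) in the 4 pairwise comparisons, from the edgeR quasi-likelihood fit of all 8 libraries. Apart from SEN15 the intervals span log2 -0.28 to 0.28, and none of the values passed an adjusted p of 0.05.

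Most of the 10 genes had small positive values with aTC in the deletion. There, 8 of 10 had a log2 fold change above 0, with a median of 0.09 against 0.00 for all tested genes. By edgeR 0 of 10 were called, where 0.506% of all tested genes were, and 1 had an unadjusted p under 0.05 (MTR10) against 22.6% of all. Libraries did not overlap between the groups for 5 higher and 1 lower, against 29.8% and 28.7% of all genes. In wild type, 8 of 10 were also above 0 (7 with RLE size factors or DESeq2, where TRL1 lay just below 0, and 5 with only the wild-type libraries) but with a median of 0.01, 0 were called (background 0.371%), 0 had an unadjusted p under 0.05 (4.99%), and 4 were higher without overlap (17.2%). Averaged over genotypes, 0 were called (1.31%) and 2, SEN34 and TPT1, had an unadjusted p under 0.05 (18.9%). The difference of the responses gave 0 called (0.0169%) and 0 with an unadjusted p under 0.05 (7.23%).

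Between the strains in DMSO the median log2 fold change of the 10 genes was -0.03, 0 were called by edgeR (background 0.219%), 0 had an unadjusted p under 0.05 (16.5%) and 4 were lower without overlap (29.4%). In aTC the median was 0.02, 0 were called although 13.6% of all genes were, 1 (TRL1) had an unadjusted p under 0.05 (32.5%), and 3 were higher (30.9%) and 1 lower (27.9%) without overlap. That background of 808 genes fell to 3 without replicate 1 of the deletion with aTC, to 63 without replicate 1 of wild type with aTC, and to 332 and 220 without replicate 1 or 2 of the deletion with DMSO. It rose to 1408 without replicate 2 of wild type with aTC, and was 369 with only the aTC libraries. Averaged over treatments, 0 of 10 were called while 21.2% of all genes were, 1 (TRL1) had an unadjusted p under 0.05 (37.3%), and the median was -0.01. The 1260 genes behind that share became 284 and 99 without replicate 1 or 2 of the deletion with DMSO, 557 without replicate 1 of the deletion with aTC, 783 without replicate 1 of wild type with aTC, and 781 and 750 without replicate 1 or 2 of wild type with DMSO. That count rose without replicate 2 of wild type with aTC, the fit in which TRL1 was called. The comparisons that use the same group share its libraries, so their values are not independent of each other.

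Some other genes of the tRNA pathway were called between the strains, mainly on the transport list when averaged over treatments. Of 13 genes for trimming tRNA ends, deletion against wild type averaged over treatments gave 2 lower and 1 higher by edgeR, of 12 genes for other nuclear transport 6 lower and 1 higher, and of 11 genes for tRNA surveillance and for HAC1 splicing 2 lower and 0 higher, where 11.2% of all genes were lower and 10% higher. In either direction 21.2% of all genes were called, and the end-trimming and surveillance lists lay near that share. DESeq2 called 3, 6 and 3 genes lower and 0, 2 and 0 higher, of 1345 genes that it called in all. Its calls held POP1, SSA2 and RAT1, which edgeR did not call in this comparison, and did not hold POP8. The lists' median log2 fold changes were -0.09, -0.11 and -0.08, beside 0.00 for all genes. In aTC alone 0, 3 and 3 genes of these lists were lower and 0 higher by edgeR (8.13% and 5.5% of all genes). DESeq2 called 3, 4 and 3 lower and 0 higher there, POP1, POP4 and LHP1 among them, of 973 genes that it called in all. In the same comparison 0, 1 and 0 genes were higher and 7, 6 and 4 lower at an unadjusted edgeR p under 0.05. Of all genes, 32.5% had such a p in either direction. Libraries did not overlap for 1, 3 and 2 genes higher (30.9% of all genes) and 8, 7 and 5 lower (27.9%). In DMSO alone edgeR called 0 in each list (0.219% of all genes) and DESeq2 called HAC1 lower, of 115 genes that it called in all. At an unadjusted edgeR p under 0.05, 2, 1 and 0 genes were higher and 1, 3 and 3 lower, against 16.5% of all genes in either direction. Without overlap in DMSO, 5, 10 and 7 genes were lower (29.4% of all genes) and 3, 1 and 0 higher. With aTC in the deletion edgeR called 0 genes of the 3 lists (0.506% of all genes). DESeq2 called 2 transport genes, CRM1 higher and YRB1 lower, of 375 genes that it called in all. At an unadjusted edgeR p under 0.05, 0, 2 and 1 genes were higher and 4, 1 and 2 lower, against 22.6% of all genes in either direction. Here 10, 4 and 6 genes were lower without overlap (28.7% of all genes) and 1, 4 and 2 higher (29.8%). The log2 fold change was below 0 for 12 of 13 end-trimming genes (median -0.12), 5 of 12 transport genes and 7 of 11 surveillance genes. With aTC in wild type 0 genes of the lists were called by either tool (0.371% of all genes by edgeR, 49 genes by DESeq2). There 0 had an unadjusted edgeR p under 0.05 (4.99% of all genes). No test of the difference between the lists and the splicing and export genes was made.

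HAC1, the mRNA of the transcription factor of the unfolded protein response and the other substrate of the TRL1 ligase, had the smallest adjusted p of the 3 lists. It stood at 1121 ± 0.24 CPM (SD) in wild type with DMSO, 1150 ± 4.12 in wild type with aTC, 967 ± 8.37 in the deletion with DMSO and 873 ± 56.9 in the deletion with aTC. Every deletion library was below every wild-type library. Averaged over treatments its log2 fold change was -0.30 (SE 0.0404, edgeR adjusted p = 0.00357), and in aTC -0.40 (SE 0.0571, adjusted p = 0.0134), and both calls held with each of 8 libraries left out. In DMSO the log2 value of -0.21 had an edgeR adjusted p = 0.142 and a DESeq2 adjusted p = 0.0359. HAC1 overlaps 2 other listed genes, so its counts are uncertain, and counts per gene do not separate its spliced from its unspliced form.

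Among transport genes, MTR2, a subunit of the mRNA export receptor that also carries tRNA, was lower in the deletion, at a log2 fold change of -0.30 averaged over treatments (SE 0.0577, edgeR adjusted p = 0.00908). SRM1, the exchange factor of the Ran GTPase that drives export, was lower at -0.19 (SE 0.0373, adjusted p = 0.00932) and YRB1, a Ran-binding protein gene, at -0.20 (SE 0.0509, adjusted p = 0.0222). In aTC alone the same 3 genes were lower, at log2 -0.40, -0.24 and -0.30. RNA1 (-0.13), the Ran GTPase activator gene, ARC1 (-0.13), a tRNA synthetase cofactor gene, and NUP116 (-0.12), a pore protein gene, were also called lower on average, at edgeR adjusted p = 0.0339, 0.0383 and 0.0494. GSP2, a Ran gene, was higher at 0.33 (SE 0.0954, edgeR adjusted p = 0.0344), from 4.38 to 7.81 CPM across libraries, and its near-identical copy GSP1 leaves its counts uncertain. In the pairwise comparisons GSP2 did not pass, at 0.38 with aTC in the deletion (adjusted p = 0.133), 0.20 with aTC in wild type (0.997), 0.24 between strains in DMSO (0.402) and 0.42 between strains in aTC (0.0591).

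Of the end-processing genes, POP4 (-0.25, edgeR adjusted p = 0.0303), of RNase P, and LHP1 (-0.16, adjusted p = 0.048), which protects the trailing end of new tRNA, were lower in the deletion, and POP8 (0.19, adjusted p = 0.04), also of RNase P, was higher. LHP1 overlaps 1 other listed gene. The largest values of this list with aTC were POP6 in the deletion (log2 -0.23, adjusted p = 0.163) and POP5 in wild type (0.09, adjusted p = 0.997), neither called. In DMSO the largest was POP8 (0.27, adjusted p = 0.165) and in aTC POP4 (-0.30, adjusted p = 0.0671), neither called by edgeR. DESeq2 called POP4 in aTC (adjusted p = 0.0261) and not the other 3.

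Of the surveillance genes, MTR4, the helicase gene of nuclear RNA decay, was lower in the deletion at -0.27 averaged over treatments (SE 0.0586, edgeR adjusted p = 0.0134) and at -0.33 in aTC (adjusted p = 0.0269). TRF4, the poly(A) polymerase gene of the same pathway, was lower at -0.22 in aTC (adjusted p = 0.0468). Values with aTC that did not pass were MAF1, the repressor gene of RNA polymerase III, at 0.18 in the deletion (adjusted p = 0.133), and MET22 at -0.11 in wild type (adjusted p = 0.997).

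Most of these calls depended on which libraries were in the fit. Averaged over treatments, MTR2 was called in 7 of 8 fits that left out a library, MTR4 and SRM1 in 6, YRB1 and GSP2 in 3, ARC1, RNA1, LHP1 and POP4 in 2, NUP116 in 1 and POP8 in 0. In aTC alone MTR2 was called in 6 of 8, SRM1 and YRB1 in 4, MTR4 in 3 and TRF4 in 1. MTR2 lost the averaged call without replicate 2 of the deletion with DMSO (adjusted p = 0.0592), while MTR4 and SRM1 lost it without either library of that group (up to 0.0644 and 0.0585).

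**Figure D4:**
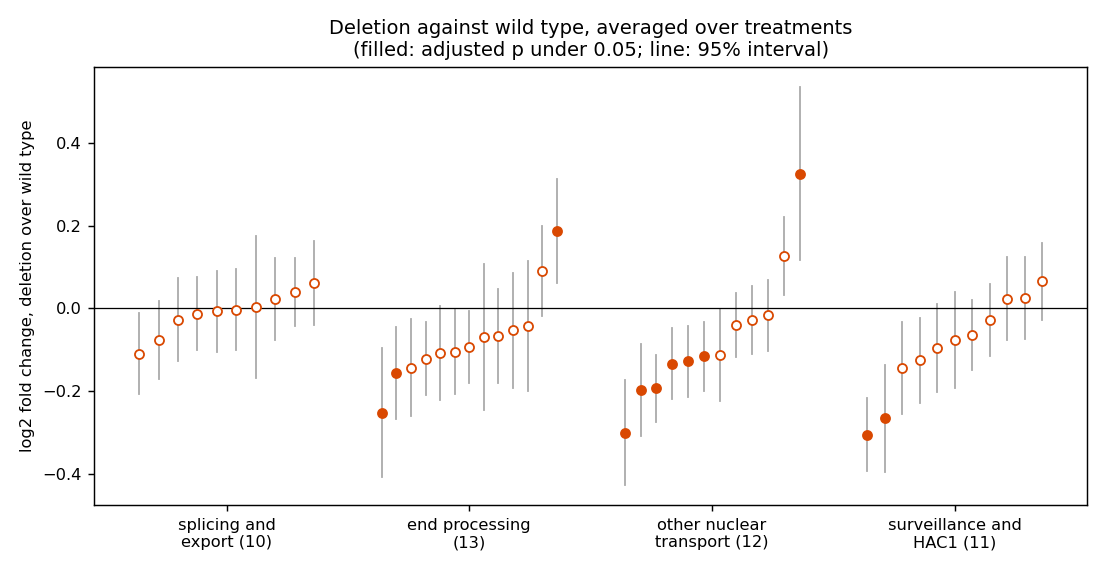
Log2 fold change of deletion over wild type averaged over treatments (y axis) for the 10 splicing and export genes and 3 lists of other tRNA pathway genes (x axis); lines are 95% intervals and filled points passed an edgeR adjusted p of 0.05. The first list has 0 filled points, and the others have 3, 7 and 2.

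SEN15 had the widest range of group means of the 10 genes. The genes whose log2 CPM followed it most closely over the 8 libraries were RSM25, a mitochondrial ribosome gene (Pearson r = 0.959), PZF1, the gene of transcription factor IIIA (0.955), and ATP23, a mitochondrial protease gene (0.952). These are the highest values among all tested genes with a symbol, over libraries that come in pairs of replicates, and they are given as a description.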

How the data were processed

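The authors deposited raw counts per gene for 8 libraries. STAR did the alignment, per the submitters' processing notes, and featureCounts 2.0.1 counted exon reads of unique alignments, per the file headers. No strand option was set, and a read touching 2 features is dropped. The file headers name an annotation, MvO_v1; the genome build is not given in the sources used here, coordinates are those of the files, and RefSeq R64 gave gene names only (5931 of 6663 matched) and the tRNA gene count.

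Counts were fitted in R 4.3.3 with edgeR 4.0.16 (TMM, default expression filter, quasi-likelihood F test, 1 mean per group, no block, 4 residual degrees of freedom). The filter kept 5932 genes, and Benjamini-Hochberg adjustment ran over them. SE is the absolute log2 fold change over the square root of F. Intervals are 95% on the fit's total degrees of freedom, which add prior ones to the 4 residual ones. CPM per kb divides by the files' gene length. DESeq2 1.42.0 and other fits were run as alternatives. Simulated counts for aTC in the deletion (5917 genes run) gave calls for 59.1%, 91% and 100% of genes changed by log2 0.3, 0.6 and 1. The simulation gave every gene the same dispersion, so these shares need not hold for the real counts.

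A count of 0 would allow up to 3 reads, which is 0.0491 to 0.0603 CPM in these libraries; floors cover counting error only. Replicates differed by more than sampling noise (chi-square per degree of freedom 8.34 to 33.8). The genes and lists were chosen with earlier results of these data known. All 10 genes were named; of the pathway lists, genes called in any comparison and the largest pairwise value of each list were named. A promoter motif search and a comparison of endonuclease proteins were planned and not run, since no sequence of the files' build was used.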

Additional observations from a re-analysis of the deposited data

How the results depend on the processing

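The count of the 10 genes called was 0 in all 7 comparisons with RLE size factors, DESeq2, no filter on low counts and the replicate block, and 0 in the 4 pairwise comparisons with only the libraries of the comparison. With each library left out it was 0 in 6 comparisons and 0 to 1 for deletion against wild type averaged over treatments, the 1 being TRL1 without replicate 2 of wild type with aTC. Of 560 log2 fold changes of the 10 genes with a library left out, 50 had the opposite sign to the full fit, none of them called. The values that follow are the lowest and highest log2 values with a library left out, for the genes whose sign turned. For aTC in the deletion, they were SEN2 -0.0411 to 0.134 and SEN54 -0.00654 to 0.126. For aTC in wild type, they were SEN54 -0.0247 to 0.00828, SEN15 -0.0584 to 0.0752, TRL1 -0.0556 to 0.0568, LOS1 -0.0442 to 0.0785 and MTR10 -0.0233 to 0.0462. MET22, a pathway gene outside the 10, ran from -0.221 to 0.00188 in that comparison. Between strains in DMSO, they were SEN54 -0.000693 to 0.0504, SEN15 -0.0218 to 0.21, TPT1 -0.0213 to 0.0126, CEX1 -0.0512 to 0.0238 and MTR10 -0.0595 to 0.00991. Between strains in aTC, they were SEN2 -0.111 to 0.0555, LOS1 -0.102 to 0.021 and CEX1 -0.0685 to 0.0752. For the difference of the responses, they were SEN2 -0.0724 to 0.0892 and CEX1 -0.049 to 0.0901. For aTC averaged, they were SEN2 -0.00486 to 0.089 and SEN54 -0.0134 to 0.0592. Between strains averaged, they were SEN2 -0.0746 to 0.0109, SEN34 -0.0189 to 0.00876, SEN15 -0.0525 to 0.0619, MSN5 -0.0364 to 0.0127 and CEX1 -0.0441 to 0.0301. Signs also turned for TRL1 for aTC in wild type (-8.30e-04 with RLE, -5.92e-04 with DESeq2 and -0.0102 with only the wild-type libraries), SEN15 (-0.00927) and MTR10 (-0.00345) for the same comparison with only the wild-type libraries, CEX1 between strains in aTC with only those libraries (-0.00196), TPT1 between strains in DMSO with no filter (7.43e-04) and SEN15 between strains averaged (-0.00204 with RLE and -0.00111 with DESeq2). The cause was not tested.

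Same-numbered replicates did not pair: correlations of their deviations ran from -0.156 to 0.143 over 6 pairs of groups. The replicate block ended the calls of LHP1 (adjusted p = 0.0603), POP8 (0.0502) and NUP116 (0.0568) averaged over treatments and of TRF4 in aTC (0.0572). DESeq2 did not call POP8 (0.0824). NUP116 also lost its call with no filter on low counts, and TRF4 and SRM1 lost theirs in aTC with only the libraries of the comparison.

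Counts over all genes moved more. For aTC in the deletion 30 genes were called by edgeR, 375 by DESeq2, 702 with only the deletion libraries and 9 to 549 with a library left out. For aTC in wild type the counts were 22, 49, 11 and 14 to 27. For the strains in DMSO they were 13, 115, 261 and 1 to 106, with 21 under RLE, 29 with no filter and 28 with the block. For the strains in aTC they were 808, 973, 369 and 3 to 1408. Averaged, aTC gave 78 genes, 220 by DESeq2 and 20 to 551, and the strains gave 1260, 1345 by DESeq2 and 99 to 1746. The difference of the responses gave 1, and 1 to 175 with a library left out.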
